A study of Mus musculus with 12 samples.

Results

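Imprinted genes are expressed wholly or mainly from the copy inherited from the mother or from the copy inherited from the father, and 48 of them, listed by symbol, were followed here across 4 groups of mouse cells. All 48 were found among the 45706 genes of the count table, and 43 of them had enough reads to be tested among 17003 genes in all. The other 5 (Calcr, Kcnq1, Slc22a3, Kcnk9 and Rasgrf1) did not pass the filter on low counts. Every group came from embryonic stem cells of strain C57BL/6 that carry GFP knocked into 1 copy of Sox1, a transcription factor of early neural stem cells. The baseline group (labelled Baseline) held Sox1-negative, by its labels unsorted, neural progenitor cells (NPCs), called glial progenitors in the labels. Sox1-positive NPCs (Sox1posGP) were sorted for GFP after the endogenous Sox1 promoter had been targeted with dCas9-VP64, a Cas9 that cannot cut, fused to an activator. NSC libraries came from unsorted neuroepithelial cells after neural induction, and NR libraries from neuroepithelial cells sorted for GFP and described as neural rosettes. Each group had 3 biological samples, made on separate days and, by the study, from different clonal lines. The NPC lines that carry dCas9-VP64 each go back to a single cell, and which line gave which library, and whether baseline cells carried guide RNAs, were not given in the sources used here. The study's text speaks of cells sorted for the comparison of NPCs, without saying that baseline cells were left unsorted. Where the labels hold, sorting differed together with Sox1 activation, and their effects cannot be told apart.

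Imprinted genes lie in clusters in which a stretch of DNA, methylated in only the egg or only the sperm, sets which copy of several neighbours is transcribed. Many paternally expressed members, such as Mest, Plagl1 and Peg3, are active in embryonic and stem-like cells, and several maternally expressed members, such as Cdkn1c, H19 and Phlda2, are known to restrain growth. In the brain, imprinted genes are known from neural stem cells, where Cdkn1c holds back the cell cycle and Dlk1 takes part in stem cell maintenance. The counts pool both parental copies, so the parental class given for a gene is background and was not measured.

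Library totals ranged from 3407066 counts in a Sox1-positive library to 43095688 in an NSC library, and values are given as CPM, counts scaled to a common library total. The mean level that 3 counts stand for, used as the floor below, was 0.408 CPM in baseline NPCs, 0.613 in Sox1-positive NPCs, 0.0874 in NSC and 0.122 in NR. Sox1 itself measured 4.83, 6.00 and 5.43 CPM in baseline NPCs, 20.3, 20.9 and 21.7 in Sox1-positive NPCs, 48.6, 64.9 and 51.8 in NSC, and 4.62, 20.001 and 19.2 in NR. The first NR library thus lay at the baseline level of the gene whose reporter it was sorted for. Summed pluripotent cell markers (10 genes such as Nanog and Zfp42) reached 1739 to 3321 CPM in NR. They were 66.8 to 188 in NSC and 15.6 to 46.5 in the NPC groups. Summed neural progenitor markers were lowest in NR at 1019 to 1841 CPM. Slc1a3 weighed heavily in that sum, with a mean of 2605 CPM in baseline NPCs against 42.3 in NR. Among the 10 progenitor markers, 4 were higher and 6 lower in NR than in baseline NPCs, and all 10 were lower than in NSC. Summed mesenchyme and muscle markers (10 genes such as Col1a1 and Twist1) were 2109 to 3793 CPM in NSC and 2370 to 8107 in NR against 40.5 to 62.7 in the NPC groups, and all 10 were detected in every group. By Sox1 in their first library and by the pluripotent cell markers, the libraries labelled NR go in part against their label. The mesenchyme and muscle markers of both NSC and NR also go in part against a neural label. The values of NSC and NR below are those of the libraries so labelled.

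Together the members took 0.233 to 0.239% of all counts in baseline NPCs and 0.357 to 0.363% in Sox1-positive NPCs. In NR the share was 0.428 to 0.634%, and in NSC 0.757 to 0.855%. The ranges of the 4 groups did not overlap. Single genes weighed heavily in these shares. Mest and Nnat had means of 144 and 8.62 CPM in baseline NPCs and 626 and 326 in Sox1-positive NPCs. In NSC they had 2281 and 1582 CPM, and in NR 913 and 788. Cd81 went the other way, from 604 CPM in baseline NPCs to 214 in NSC and 226 in NR. Per kilobase of exon, the highest members in baseline NPCs were the tetraspanin Cd81 at 210 CPM per kb, the histone chaperone Nap1l4 at 89.9 and the retrogene Mcts2 at 53.6. In Sox1-positive NPCs Cd81 (268 CPM per kb) was followed by the membrane proteolipid Nnat (178) and the hydrolase-like protein Mest (159). Nnat and Mest led in NSC at 865 and 578 CPM per kb, and in NR at 431 and 231.

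To see which members moved with Sox1 activation, Sox1-positive NPCs were compared with baseline NPCs. Nnat, Mest, Plagl1, Peg10 and Peg12, all known as paternally expressed, rose between 2.64-fold and 38.0-fold, and the cell cycle inhibitor Cdkn1c fell 31.3-fold. At an adjusted p under 0.1 (edgeR's quasi-likelihood test, Benjamini-Hochberg over all 17003 genes), 9 of the 43 members rose and 8 fell. Of all genes tested, 21.6% rose and 22.7% fell, so the members' shares of 20.9% and 18.6% lay near the background. Without replicate 1 of either group, 5 members fell. The median log2 fold change was 0.05 over the tested members not at the floor in both groups, and 0.00 over all genes. Past 4-fold, 3 members rose (3.87% of all genes) and 3 fell (1.92% of all genes), and 1 of these 3, Rian, was at the floor in both groups. In all, 13 of the 48 members had at most 3 counts in each of the 6 NPC libraries.

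Nnat, a small membrane protein of developing brain, had 8.23, 9.07 and 8.56 CPM in the baseline libraries and 319, 331 and 327 in the Sox1-positive libraries. The 3 libraries of each group lay close together and far from the other group. The log2 fold change was 5.25 ± 0.24 (SE, n = 3 against 3, adjusted p = 3.5e-09). Nnat lies on chromosome 2 (mm10, 157560078 to 157562522, plus strand) within the span of Blcap, a membrane protein gene transcribed from the minus strand (157556362 to 157571274). Blcap itself measured 70.0, 63.1 and 58.6 CPM at baseline and 53.8, 49.5 and 47.5 in Sox1-positive NPCs, a log2 fold change of -0.36 ± 0.11 (adjusted p = 0.024), and the call was lost without baseline replicate 1 (-0.25, adjusted p = 0.161). The other 74 well expressed genes within 5 Mb on each side of Nnat had a median log2 fold change of -0.06, the same as over all 9706 such genes.

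Mest rose from 149, 138 and 145 CPM to 653, 625 and 600 (log2 fold change 2.12 ± 0.29, adjusted p = 5.8e-05). Its antisense neighbour Copg2, a coatomer subunit expressed from the maternal copy, gave 0.08 ± 0.10 (adjusted p = 0.59). The exons of Mest and Copg2 overlap on opposite strands and the libraries did not mark strand, so reads in the shared stretch cannot be told apart. Plagl1, the zinc-finger factor also called Zac1, rose from 6.92, 5.16 and 3.76 CPM to 26.9, 22.9 and 24.7 (2.11 ± 0.33, adjusted p = 0.00021). Its baseline libraries held 116, 37 and 18 counts, and the groups did not overlap.

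Cdkn1c, which encodes p57 and is expressed from the maternal copy, fell from 30.5, 26.4 and 25.9 CPM to 0.579, 1.26 and 0.667. These Sox1-positive values rest on 2, 8 and 4 counts. The log2 fold change was -4.97 ± 0.27 (adjusted p = 1.3e-08), and in NSC and NR, by contrast, the gene measured 104 to 129 and 95.6 to 131 CPM. Cdkn1c (chromosome 7, 143458339 to 143461050, minus strand) shares its cluster with Kcnq1ot1, the paternally expressed long non-coding RNA known to silence neighbours in cis. Kcnq1ot1 was 103, 104 and 119 CPM at baseline and 94.1, 72.7 and 122 in Sox1-positive NPCs, and the groups overlapped (-0.17 ± 0.20, adjusted p = 0.55). Of the remaining maternally expressed members of that cluster, Cd81 (0.35 ± 0.12, adjusted p = 0.035) and the splicing-associated Tssc4 (0.43 ± 0.09, adjusted p = 0.0016) rose slightly, and Nap1l4, further along the same stretch, gave 0.04 ± 0.08 (adjusted p = 0.79). The Cd81 call was lost without baseline replicate 2 or 3. Phlda2, Slc22a18 and Kcnq1 had at most 3 counts in every NPC library, and Ascl2 at most 6. The 58 other well expressed genes within 5 Mb of Cdkn1c had a median of 0.05.

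Genes of the Snrpn-Ube3a cluster went in different directions. Peg12, a Frat family member, rose from 29.7, 35.7 and 33.2 CPM to 79.9, 92.2 and 85.7 (1.40 ± 0.23, adjusted p = 0.00033). Ndn, the growth-restraining protein necdin, went from 3.52, 2.65 and 2.50 CPM to 0.869, 0.785 and 0.334, on 59, 19 and 12 against 3, 5 and 2 counts (-2.26 ± 0.38, adjusted p = 0.00031). Mkrn3, a RING finger protein gene between them on the chromosome, gave 0.07 ± 0.15 (adjusted p = 0.76), Snrpn -0.03 ± 0.14 (adjusted p = 0.90) and Ube3a 0.05 ± 0.09 (adjusted p = 0.73). All of these but the maternally expressed ubiquitin ligase Ube3a are known as paternally expressed. The median of 23 other well expressed genes within 5 Mb of Ndn was 0.00.

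Peg10 and Sgce start next to each other on opposite strands of chromosome 6, and both are paternally expressed. Peg10, a gene derived from a retrotransposon, rose from 34.8, 36.0 and 44.2 CPM to 125, 109 and 114 (1.61 ± 0.17, adjusted p = 5.4e-06). Sgce, a sarcoglycan, moved from 186, 163 and 164 CPM to 128, 135 and 128 (-0.40 ± 0.15, adjusted p = 0.054), a call lost without baseline replicate 1 (-0.30, adjusted p = 0.234), Sox1-positive replicate 1 (-0.36, 0.162) or Sox1-positive replicate 3 (-0.39, 0.134). Within the Peg3 cluster, the zinc-finger gene Peg3 rose from 52.3, 57.9 and 53.4 CPM to 90.9, 88.1 and 92.4 (0.73 ± 0.17, adjusted p = 0.0037). Its divergent neighbour Usp29, a deubiquitinase, had 2 to 16 counts in the NPC libraries and gave -0.15 ± 0.53 (adjusted p = 0.87).

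Outside these clusters, Airn, the paternal long non-coding RNA known to silence Igf2r, rose from 7.46, 6.98 and 6.68 CPM to 15.6, 13.2 and 20.3 (1.21 ± 0.21, adjusted p = 0.00041). The Polycomb-type gene Sfmbt2 fell from 23.1, 25.8 and 27.5 CPM to 8.97, 8.48 and 11.5 (-1.39 ± 0.22, adjusted p = 0.00025). Zrsr1, a splicing factor retrogene within Commd1, fell from 20.2, 18.4 and 16.3 CPM to 8.40, 9.42 and 10.5 (-0.95 ± 0.16, adjusted p = 0.00037), and Commd1 gave -0.17 ± 0.11 (adjusted p = 0.26). Their exons overlap on opposite strands, so reads in the stretch they share cannot be told apart either. Trappc9, a trafficking complex subunit, gave -0.21 ± 0.08 (adjusted p = 0.059) and was called under only 5 of the 14 alternatives tried. Peg13, the long non-coding RNA inside Trappc9, had 17, 12 and 4 counts at baseline and 0, 3 and 4 in Sox1-positive NPCs (-1.39 ± 0.66, adjusted p = 0.12). Ppp1r9a, Impact, Gnas, Inpp5f and Mcts2 were well expressed and did not pass the test, with log2 fold changes from -0.09 to 0.17.

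**Figure D1:**
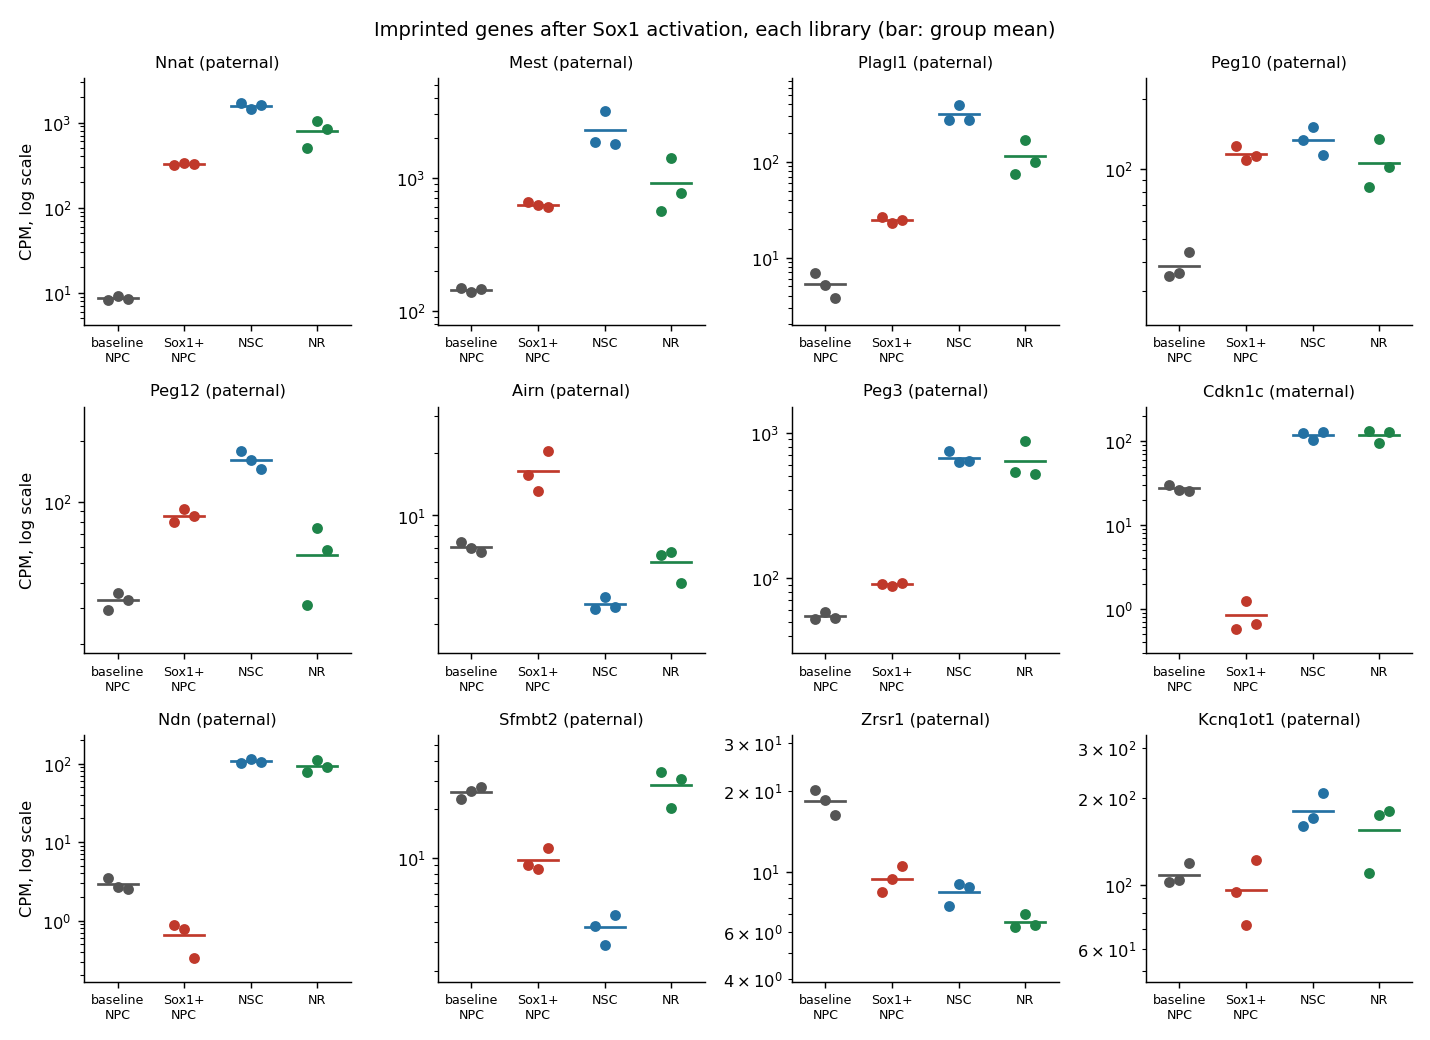
CPM on a log scale for 12 members, with 1 point per library and a bar at each group's mean. The 3 Sox1-positive libraries lie above the baseline libraries for Nnat, Mest, Plagl1, Peg10, Peg12, Airn and Peg3, and below them for Cdkn1c, Ndn, Sfmbt2 and Zrsr1, while the groups overlap for Kcnq1ot1.

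Marker levels moved between the NPC groups as well. Summed glial markers were 2420 to 2547 CPM at baseline and 1651 to 1781 in Sox1-positive NPCs, neural progenitor markers 4641 to 5017 and 2936 to 3001, pluripotent cell markers 36.6 to 46.5 and 15.6 to 17.01, and endoderm markers 23.4 to 31.0 and 39.7 to 46.9. Single genes carried most of these sums. Olig1 (1757 to 1373 CPM, group means) and Olig2 (684 to 331) made up nearly all of the glial sum, while the astrocyte genes Gfap (2.25 and 3.09) and S100b (15.4 and 18.4) did not pass the test, and of 9 glial markers tested 2 rose and 3 fell. In the progenitor list 2 rose and 5 fell, with Slc1a3 (2605 to 1182 CPM) as the bulk of the sum and Nes (90.2 to 227) and Cdh2 (68.2 to 148) higher. Klf4 (33.5 to 5.79 CPM) was the 1 pluripotent cell marker called. Without 1 marker at the floor in both groups, the list's median log2 fold change was 0.40. None of the 10 mesenchyme and muscle markers passed the test, of the 10 neuron markers 1 rose and 1 fell, and of 6 endoderm markers tested 2 rose. Whether shifts in cell makeup had a part in the changes above was not tested, and fewer cells that express a gene cannot be told apart from less RNA per cell in bulk libraries.

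**Figure D2:**
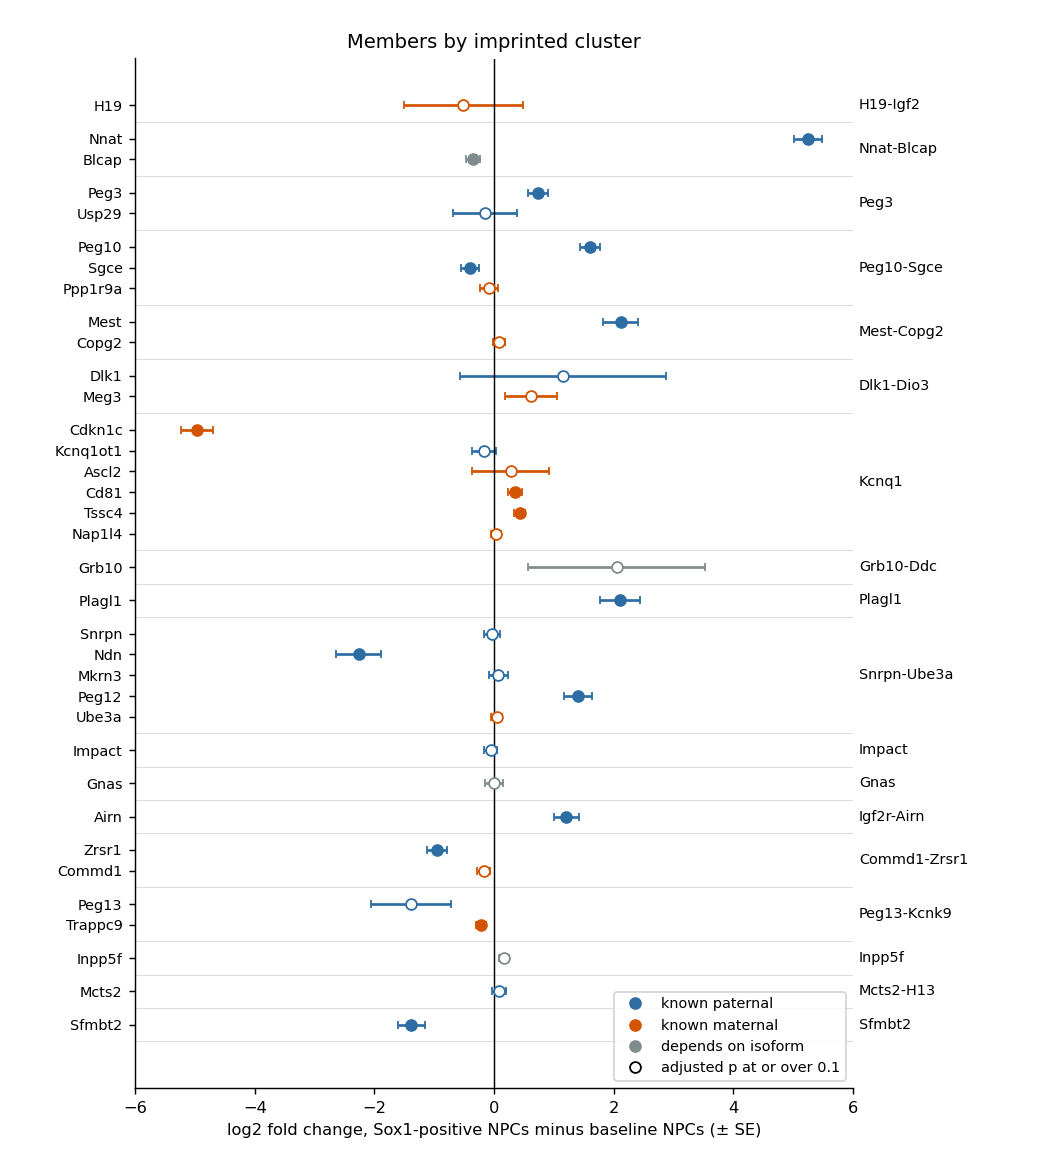
Log2 fold change of Sox1-positive against baseline NPCs, with its standard error, for each tested member that was not at the floor in both groups, ordered by cluster and coloured by the known parental class. Filled points passed an adjusted p of 0.1. Nnat (5.25) and Cdkn1c (-4.97) lie at the ends of the range, and neighbours such as Nnat and Blcap, or Peg12 and Ndn, lie on opposite sides of 0.

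By known parental class, 7 of 21 tested paternally expressed members rose and 4 fell. Of 17 maternally expressed members, 2 rose and 3 fell. These counts stand beside 21.6% of all genes that rose and 22.7% that fell, and they include members at the floor in both groups. The 3 maternally expressed members that fell were Cdkn1c, Rian and Trappc9. Rian was at the floor in both groups, and Trappc9 was called under only 5 of the 14 alternatives tried. Calls of the paternally expressed Sgce and the maternally expressed Cd81 were also lost under some alternatives. The medians of both classes, 0.07 and 0.04 on the log2 scale without members at the floor in both groups, lay near the 0.00 of all genes. Members classed as depending on isoform (Blcap, Grb10, Ddc, Gnas and Inpp5f) held 1 that fell. The classes do not take tissue into account, and whether a member is imprinted in these cells was not measured. A difference between the classes was not tested.

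Promoters of 4 of the 6 members past 4-fold are shown because a methylated control region of Nnat, Mest and Plagl1 is known to overlap their start, while Ndn depends on a distant one. RefSeq windows of 300 bases, 250 before to 50 after the start (build GRCm38.p6), were given for 37 of the 48 members, and none for Cdkn1c was used here. TGCCGC on either strand, the letters that ZFP57 is known to recognise when methylated, is in capitals in the windows below (GCGGCA is the same site on the other strand), and no other motif was searched. Each is written from 5′ to 3′ on the plus strand, the strand of the gene. Nnat spans chr2:157559828-157560127, Mest chr6:30737800-30738099, Plagl1 chr10:13090582-13090881 and Ndn chr7:62348027-62348326.
Nnat: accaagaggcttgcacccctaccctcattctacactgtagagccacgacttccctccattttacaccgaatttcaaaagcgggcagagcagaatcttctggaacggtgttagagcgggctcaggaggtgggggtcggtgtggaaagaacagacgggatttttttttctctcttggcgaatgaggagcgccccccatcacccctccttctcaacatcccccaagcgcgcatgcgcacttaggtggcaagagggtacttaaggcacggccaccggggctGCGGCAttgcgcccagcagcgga
Mest: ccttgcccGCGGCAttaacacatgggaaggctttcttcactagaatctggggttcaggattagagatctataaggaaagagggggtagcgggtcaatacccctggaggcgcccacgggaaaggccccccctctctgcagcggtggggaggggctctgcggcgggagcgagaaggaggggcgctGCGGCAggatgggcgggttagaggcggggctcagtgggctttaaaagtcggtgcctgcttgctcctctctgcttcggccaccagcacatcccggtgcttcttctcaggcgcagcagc
Plagl1: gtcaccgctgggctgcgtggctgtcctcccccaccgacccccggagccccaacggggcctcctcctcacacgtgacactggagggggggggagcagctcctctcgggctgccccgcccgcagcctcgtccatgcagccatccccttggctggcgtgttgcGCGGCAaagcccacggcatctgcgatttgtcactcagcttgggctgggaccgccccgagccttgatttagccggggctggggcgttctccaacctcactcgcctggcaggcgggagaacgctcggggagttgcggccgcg
Ndn: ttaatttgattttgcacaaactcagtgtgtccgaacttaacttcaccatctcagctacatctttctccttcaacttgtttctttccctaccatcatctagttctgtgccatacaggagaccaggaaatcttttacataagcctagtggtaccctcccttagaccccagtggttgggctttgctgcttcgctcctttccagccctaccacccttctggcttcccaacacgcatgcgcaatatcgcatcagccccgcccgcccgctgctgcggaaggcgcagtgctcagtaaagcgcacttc
The windows held 17 CpG dinucleotides in Nnat, 17 in Mest, 26 in Plagl1 and 11 in Ndn, against a median of 7 over all 32851 RefSeq windows. The 6 letters were found 1 time in Nnat, 2 times in Mest, 1 time in Plagl1 and not in Ndn. Mest had several windows, and one with the most of these letters was the one shown. Its window at chr6:30733256-30733555 held 8 CpG and lacked the letters, and that at chr6:30737803-30738102 held 17 CpG and the letters 2 times. In all, 11 of the 37 members had them in at least 1 window (12 of 52 windows, 23.1%), and 11.6% of all windows did. No share per gene was taken over all genes. The member windows had medians of 15 CpG and 57.5% GC, against 7 and 52.7% over all windows. Whether this had a part in the difference between the shares was not tested. Windows of Peg3, Peg12, Airn, Sfmbt2 and Zrsr1 lacked these letters, and nothing about binding follows from either case.

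NSC and NR were each compared with baseline NPCs to see where the NPC groups stood relative to libraries labelled as early neural cells. The maternal RNAs of the Dlk1-Dio3 cluster, H19, Grb10, Ddc, Magel2, Ndn, Nnat and Plagl1 were many times higher in NSC and NR than in baseline NPCs. In NSC, 28 of 43 members were higher (44.4% of all genes) and 10 lower (33.7%), 20 and 1 of them past 4-fold (19.5% and 5.9% of all genes). In NR, 26 were higher (45.6%) and 12 lower (34.1%), with 22 higher past 4-fold (22% of all genes) and none lower (6.03%). The median log2 fold change of the tested members was 1.81 in NSC and 2.09 in NR, against 0.20 and 0.19 over all genes. With members of a zero baseline set at their bound, these medians were 1.61 and 1.57. Members at the floor in the NPC groups passed the filter through their NSC and NR levels alone, so these counts and medians are descriptions of the tested members. Without NR replicate 1, the NR counts were 27 higher and 11 lower. All 10 mesenchyme and muscle markers were higher in NSC and in NR than in baseline NPCs, and 9 of 10 pluripotent cell markers were. Their part in the members' values was not tested.

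The Dlk1-Dio3 cluster on chromosome 12 holds the paternally expressed Dlk1, a Notch-like transmembrane protein, and Rtl1, a gene derived from a retrotransposon, and the maternally expressed non-coding RNAs Meg3, Rian and Mirg, the last 2 of them hosts of small nucleolar RNAs and microRNAs. Dlk1 had 6, 5 and 5 counts in baseline NPCs and 7, 6 and 7 in Sox1-positive NPCs, and 86.4, 18.1 and 82.4 CPM in NSC and 147, 26.7 and 119 in NR. The second library of both NSC and NR was the lowest. Against baseline, NSC gave a log2 fold change of 6.76 ± 0.94 (adjusted p = 1.8e-05) and NR of 7.40 ± 0.93 (adjusted p = 6.4e-06). Meg3 had 2 to 14 counts in the NPC libraries, 125, 105 and 143 CPM in NSC and 115, 148 and 149 in NR (7.09 ± 0.23 and 7.23 ± 0.23). The spread between its libraries was small beside that of Dlk1.

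Rian had 3, 2 and 0 counts at baseline and none in the Sox1-positive libraries, and 15.3, 13.8 and 16.6 CPM in NSC and 21.1, 20.1 and 24.2 in NR. From the counts, NSC were 88.0-fold above baseline (95% exact interval 37.6 to 271) and NR 127-fold (54.2 to 391). Mirg was at 0 in every baseline library and had 1 count in all Sox1-positive libraries together, against 4.04 to 5.03 CPM in NSC and 5.97 to 7.67 in NR, at least 11.5-fold and 16.4-fold higher than a baseline of 3 counts per library. Rtl1 was at 0 in all 6 NPC libraries and had 12 to 32 counts in NSC and 19 to 52 in NR, at least 1.31-fold and 2.97-fold higher. Micro-RNA genes lie within Rtl1 on the other strand, so these counts are uncertain. Between the NPC groups no member of this cluster showed a change above the floor: Dlk1 gave 1.15 ± 1.72 (adjusted p = 0.65) and Meg3 0.61 ± 0.44 (adjusted p = 0.30).

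H19, the maternal long non-coding RNA next to Igf2, had 8, 3 and 2 counts in baseline NPCs and 0, 2 and 3 in Sox1-positive NPCs. It reached 56.0, 29.6 and 48.8 CPM in NSC and 90.8, 55.5 and 92.1 in NR, log2 fold changes against baseline of 6.61 ± 0.40 and 7.44 ± 0.40 (adjusted p = 4.6e-09 and 1.3e-09). Grb10, an adaptor of insulin-type receptors, had 3, 3 and 0 counts at baseline and 4, 4 and 6 in Sox1-positive NPCs, a count ratio of 4.24 (95% exact interval 1.53 to 13.4) that did not pass the fit over all genes (2.05 ± 1.48, adjusted p = 0.31). In NSC it measured 57.5, 24.8 and 50.9 CPM and in NR 158, 49.8 and 130, ratios of counts to baseline of 223 (102 to 608) and 505 (232 to 1377). Ddc, the decarboxylase that makes dopamine and serotonin, did not exceed 2 counts in the NPC libraries, with 19.8 to 24.5 CPM in NSC and 18.2 to 20.8 in NR. The ratios to baseline were 216 (73.8 to 1047) and 184 (62.8 to 893).

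**Figure D3:**
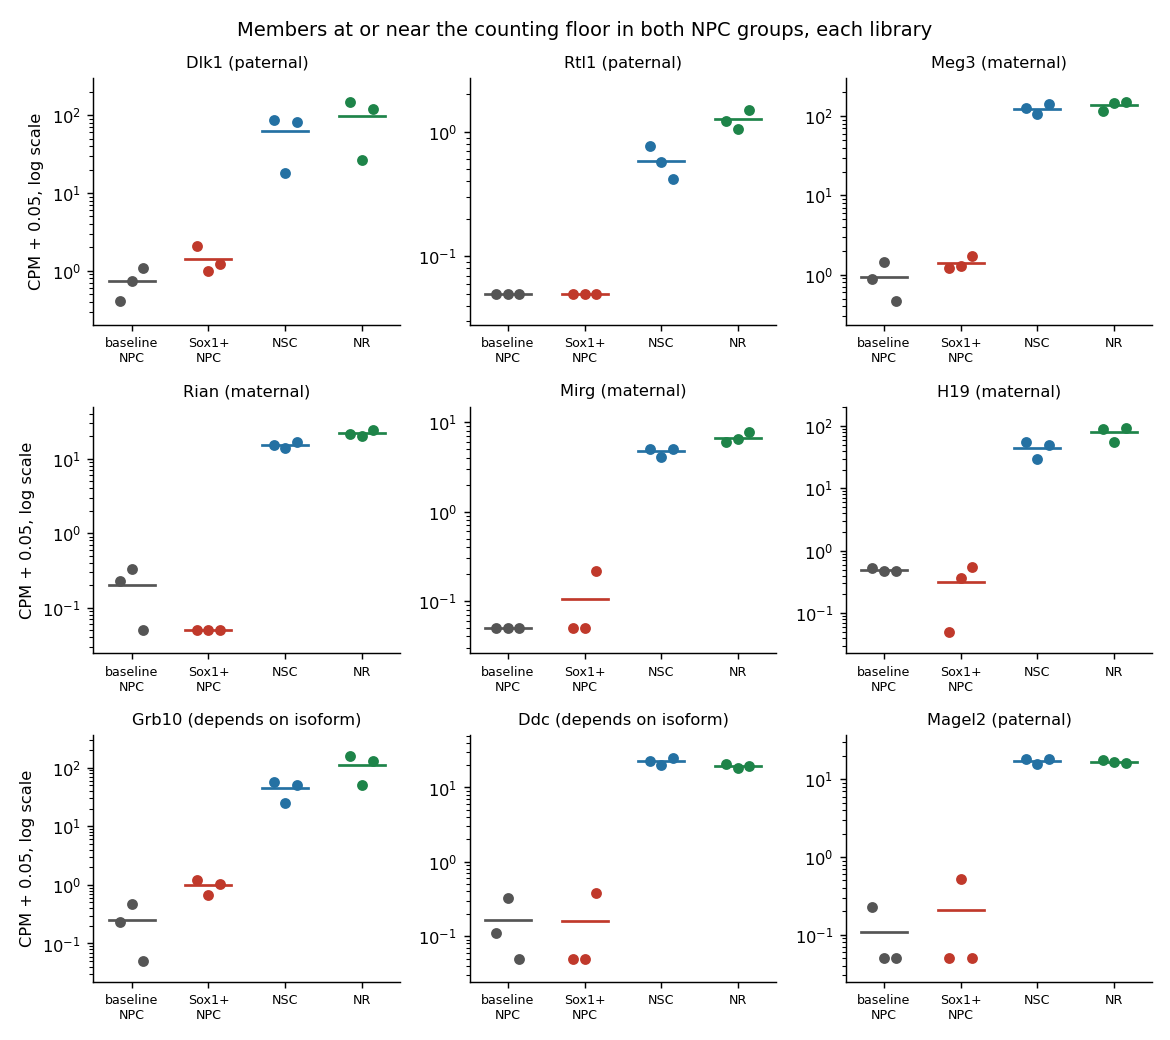
CPM plus 0.05 on a log scale for 9 members in each library, with a bar at the group mean. Every NSC and NR library lies above every NPC library, the lowest points of the NPC groups stand for 0 counts, and the second NSC and NR library is the lowest of its label for Dlk1, H19 and Grb10.

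In the Snrpn-Ube3a cluster Magel2, a MAGE family gene beside Ndn, did not exceed 3 counts in the NPC libraries and measured 15.7 to 18.2 CPM in NSC and 16.4 to 17.5 in NR (count ratios to baseline 167, 56.98 to 809, and 160.2, 54.7 to 778). Ndn measured 103, 114 and 104 CPM in NSC and 77.9, 112 and 90.5 in NR (5.12 ± 0.18 and 4.93 ± 0.18 on the log2 scale against baseline). Snrpn, a component of small nuclear ribonucleoproteins, rose from 31.3 to 40.9 CPM at baseline to 136, 155 and 144 in NSC and 329, 230 and 271 in NR (1.96 ± 0.13 and 2.89 ± 0.13). Snurf shares exons with Snrpn on the same strand, so the division of reads between them is uncertain. Ube3a was lower in both (-0.29 ± 0.09 in each, adjusted p = 0.011 and 0.010). Its exons overlap those of Snhg14 on the other strand, so reads in the shared stretch cannot be told apart. Peg12 was higher, with 179, 161 and 145 CPM in NSC and 31.3, 74.4 and 58.5 in NR (2.31 ± 0.23 and 0.75 ± 0.23), and its NR libraries overlapped the baseline range.

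Nnat reached 1686, 1452 and 1608 CPM in NSC and 504, 1030.4 and 830.0 in NR, log2 fold changes of 7.53 ± 0.25 and 6.52 ± 0.24 against baseline. Plagl1 measured 278, 396 and 277 CPM in NSC and 75.8, 168 and 99.9 in NR (5.80 ± 0.32 and 4.33 ± 0.31). Mest measured 1866, 3182 and 1793 CPM in NSC and 562, 1408 and 769 in NR (3.98 ± 0.31 and 2.66 ± 0.29). These 3 genes were the members past 4-fold higher in Sox1-positive NPCs as well, where their levels lay below every NSC library. Peg3 measured 745, 629 and 636 CPM in NSC and 538, 872 and 521 in NR (3.62 ± 0.18 and 3.56 ± 0.18). Usp29 measured 8.70 to 13.4 CPM in NSC and 11.97 to 12.99 in NR (3.66 ± 0.34 and 3.77 ± 0.35). Zim1, the maternally expressed zinc-finger neighbour of Peg3, did not exceed 2 counts in the NPC libraries and measured 1.99, 0.414 and 2.04 CPM in NSC, which overlapped baseline, and 3.63, 0.774 and 2.92 in NR. Its count ratios to baseline were 7.55 (3.398 to 20.9) and 10.8 (4.87 to 29.8), and the NSC call was lost without baseline replicate 1 (adjusted p = 0.117).

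Peg13 rose from 1.01, 1.67 and 0.835 CPM at baseline to 59.1, 46.1 and 55.1 in NSC and 14.7, 23.7 and 28.4 in NR (5.52 ± 0.32 and 4.26 ± 0.33). Cdkn1c stood at 126, 104 and 129 CPM in NSC and 131, 95.6 and 130 in NR (2.11 ± 0.14 and 2.09 ± 0.14, adjusted p = 1.4e-08 for both), above baseline and far above Sox1-positive NPCs. Peg10 (1.81 ± 0.16 and 1.49 ± 0.16), Impact (0.90 ± 0.10 and 0.56 ± 0.10) and Kcnq1ot1 (0.74 ± 0.19 and 0.52 ± 0.19) were higher in both by less than 4-fold. Lower in both were Cd81 (-1.50 ± 0.12 and -1.42 ± 0.12), Zrsr1, Mcts2, Sgce, Trappc9, Copg2 and Blcap. Sfmbt2 was lower in NSC, at 3.80, 2.90 and 4.45 CPM (-2.76 ± 0.21, adjusted p = 5.5e-08), and at the baseline level in NR, at 33.8, 20.4 and 30.7 CPM (0.16 ± 0.20, adjusted p = 0.48).

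The transporter Slc22a18 had 1 count in each baseline library and 16, 11 and 22 in NR, a ratio of 5.66 (1.83 to 28.4), and its NR call was lost without baseline replicate 1 (adjusted p = 0.144). Phlda2, known to restrain placental growth, had 3, 1 and 0 counts at baseline and 32, 22 and 28 in NSC, a ratio of 5.53 (2.08 to 20.8), and NR were 44.8-fold above baseline (17.4 to 165). With every library thinned to the smallest total, the NSC difference of Phlda2 was no longer called (-0.12, adjusted p = 0.94). The 5 members outside the test had few counts everywhere: Kcnk9 had 2 counts in 1 NSC library and none elsewhere, and Calcr, Kcnq1, Slc22a3 and Rasgrf1 had at most 1 count in any NPC library and at most 22 in any NSC or NR library.

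The libraries labelled NR were then compared with those labelled NSC. Phlda2, Ascl2 and Sfmbt2, all known from the placenta, were higher in NR, and Peg12, Plagl1, Mest, Peg13 and Nnat were lower. In this comparison 10 of 43 members were higher (30% of all genes) and 16 lower (26.6%), with 3 higher past 4-fold (7.34%) and none lower (0.124%). The median log2 fold change was -0.05 over members and 0.01 over all genes. Phlda2 rose from 0.716, 0.760 and 0.853 CPM in NSC to 8.07, 4.77 and 6.69 in NR (3.05 ± 0.29, adjusted p = 4.7e-06). Ascl2, a helix-loop-helix factor, rose from 0.559, 0.449 and 0.884 CPM to 5.36, 3.97 and 5.54 (2.96 ± 0.30, adjusted p = 6.7e-06). Sfmbt2 gave 2.92 ± 0.21 (adjusted p = 6.8e-07). These 3 sets of NR libraries lay clear of NSC. All 10 pluripotent cell markers were also higher in NR than in NSC, 9 of them past 4-fold, and their part in the members' differences was not tested.

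Of the lower members, Peg12 gave -1.55 ± 0.22 (adjusted p = 7.2e-05), Plagl1 -1.46 ± 0.24 (0.00021), Mest -1.32 ± 0.27 (0.0014), Peg13 -1.25 ± 0.22 (0.00040) and Nnat -1.005 ± 0.18 (0.00045). Snrpn was higher (0.93 ± 0.12, adjusted p = 4.4e-05), as was Airn (0.66 ± 0.19, adjusted p = 0.012). Cdkn1c, Ndn, Magel2, Meg3, Peg3 and Ube3a gave values between -0.19 and 0.14 and did not pass the test. Libraries of the same number in NSC and NR deviated together, and with the number as a block Dlk1 (0.62, adjusted p = 0.0083), Zim1 (0.71, 0.0913) and Slc22a18 (0.93, 0.0822) were also called higher, against adjusted p = 0.34, 0.34 and 0.18 without it. Without NR replicate 1, the counts were 10 higher and 14 lower.

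**Figure D4:**
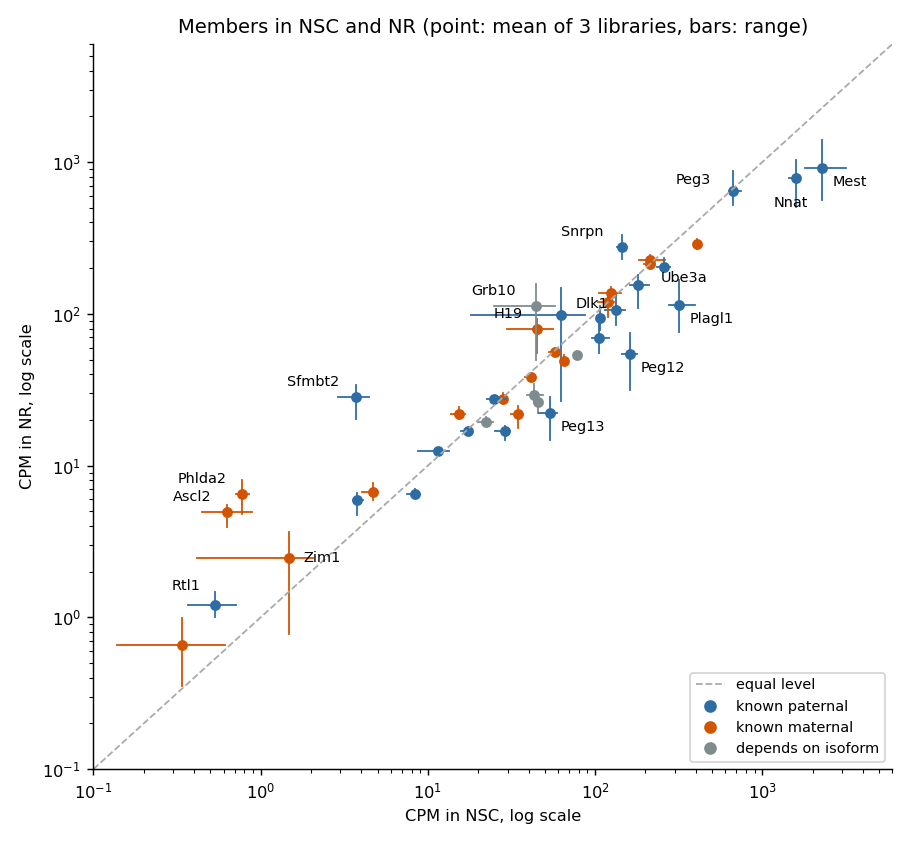
CPM of the 43 tested members in NSC (horizontal) and NR (vertical) on log scales, as the mean of 3 libraries with bars from the lowest to the highest, coloured by known parental class. Phlda2, Ascl2 and Sfmbt2 lie furthest above the line of equal levels, Peg12, Plagl1, Mest and Peg13 lie below it, and the bars of Dlk1 and Zim1 are the widest.

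The spread between libraries of 1 label was itself uneven among members. Dlk1, Zim1, Grb10 and H19 were lowest in the second library of NSC and of NR, and Mest and Plagl1 were highest there. Summed mesenchyme and muscle markers were 3793, 2109 and 3744 CPM in the NSC libraries and 8107, 2370 and 5448 in the NR libraries, so the second library of each was the lowest there too. Collagen genes carried that sum, and within the list Acta2 (143, 880.1 and 141 CPM in NSC, 275, 696 and 206 in NR), Tagln (43.4, 243 and 40.6, then 67.3, 204 and 55.9) and Twist1 (20.2, 31.1 and 23.5, then 25.0001, 38.2 and 24.3) were highest in the second libraries. Pluripotent cell markers ran 188, 66.8 and 170 CPM in NSC and 3321, 1739 and 2578 in NR. Whether the cells these markers stand for had a part in the spread of the members was not tested.

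**Figure D5:**
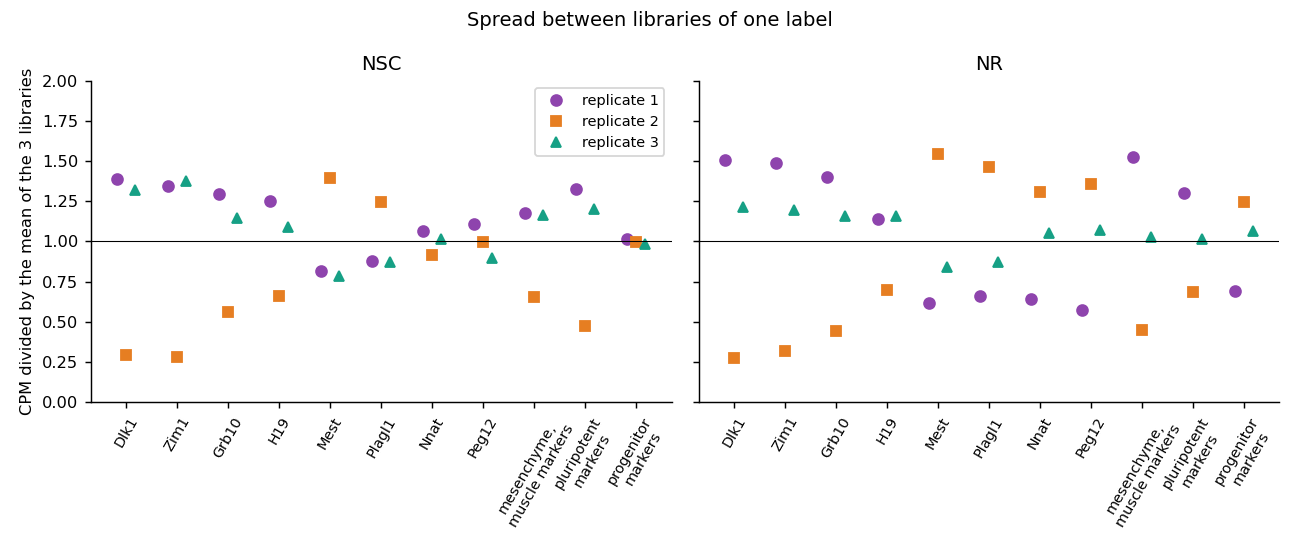
Each library's CPM divided by the mean of its 3 libraries, for 8 members and 3 summed marker lists, in NSC (left) and NR (right). Squares, the second libraries, lie lowest for Dlk1, Zim1, Grb10, H19 and the summed mesenchyme and muscle and pluripotent cell markers and highest for Mest and Plagl1 under both labels, although Acta2, Tagln and Twist1 within the mesenchyme and muscle sum are highest in those libraries.

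Set directly against NSC, Sox1-positive NPCs had 26 of 43 members lower (41.8% of all genes) and 9 higher (31.4%), of which 17 and 1 were past 4-fold (16.8% and 5.84% of all genes). The median log2 fold change was -0.95 over members and -0.18 over all genes. With members at 0 in every Sox1-positive library set at their bound, the members' median was -0.91. Members at the floor in the NPC groups passed the filter through their NSC and NR levels alone. These counts and medians therefore only describe the tested members. Ndn (-7.38 ± 0.25), Cdkn1c (-7.08 ± 0.24), Peg13 (-6.90 ± 0.41) and Meg3 (-6.48 ± 0.24) were furthest below NSC among members with over 3 counts in some Sox1-positive library. Nnat remained 4.86-fold, Mest 3.64-fold and Plagl1 12.8-fold below NSC. Peg10, which had 109 to 125 CPM in Sox1-positive NPCs and 115 to 151 in NSC, did not pass the test (-0.20 ± 0.15, adjusted p = 0.27). Airn was the member past 4-fold higher (2.13 ± 0.20, adjusted p = 5.9e-07), and Cd81 (1.85 ± 0.12), Sfmbt2 (1.38 ± 0.23) and Mcts2 (1.06 ± 0.11) were higher too. This comparison shares the Sox1-positive libraries with the first and the NSC libraries with others, so the values are given side by side and not as separate evidence. Sorting and method of derivation differ between these groups and cannot be told apart from their identity.

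By parental class, 16 of 21 paternally expressed members were higher in NSC than in baseline NPCs and 5 lower (median 2.31), and 9 of 17 maternally expressed members were higher and 4 lower (median 1.01). In NR the counts were 15 higher and 3 lower (median 2.66) and 9 higher and 7 lower (median 2.09). Of all genes, 44.4% were higher and 33.7% lower in NSC (median 0.20), and 45.6% and 34.1% in NR (median 0.19). The class counts include members that passed the filter through their NSC and NR levels alone. With members at their bound, the paternal medians were 1.96 in NSC and 1.57 in NR, and a difference between classes was not tested.

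A further 23 imprinted genes were read for the same comparison, and 19 of them were tested. In Sox1-positive NPCs 6 rose (21.6% of all genes) and 1 fell (22.7%), and 3 rose past 4-fold (3.87%). Igf2, the paternally expressed growth factor beside H19, went from 0.358, 0.837 and 0.626 CPM to 4.92, 5.02 and 7.01 (3.42 ± 0.48, adjusted p = 8.4e-05), against 66.7 to 80.8 in NSC and 52.7 to 111 in NR. Klf14, a maternally expressed zinc-finger factor near Mest, was at 0 in every baseline library and had 3, 10 and 6 counts after activation, at least 2.81-fold higher than 3 counts per library. Trpm5, an ion channel gene whose exons overlap Tssc4 on the other strand, had 2, 1 and 1 counts and then 2, 12 and 8, a ratio of 9.98 (3.39 to 39.9). Igf2r, which Airn is known to silence, gave -0.50 ± 0.37 (adjusted p = 0.33). In NSC 13 of the 19 were higher (44.4% of all genes) and 5 lower (33.7%) than at baseline, and in NR 11 (45.6%) and 4 (34.1%).

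Of 26 genes known to set or maintain imprints, 9 rose and 6 fell in Sox1-positive NPCs, none past 4-fold. These shares of 34.6% and 23.1% stand beside 21.6% and 22.7% of all genes, and the count that fell was 1 to 5 with a library left out, the 1 being without Sox1-positive replicate 1. Zfp57, which encodes a zinc-finger protein that keeps imprints, rose from 20.7, 20.5 and 21.9 CPM to 37.6, 43.3 and 42.7 (0.98 ± 0.14, adjusted p = 9.5e-05). Zfp445 of the same list went the other way, from 47.6, 56.6 and 50.3 CPM to 29.2, 40.0 and 40.2. Uhrf1 (1.40 ± 0.08), its partner the maintenance methyltransferase Dnmt1 (0.64 ± 0.10) and the histone methyltransferase Setdb1 (1.48 ± 0.10) rose, and the dioxygenase Tet2 fell (-0.996 ± 0.23, adjusted p = 0.0040). Zfp57, Zfp445, Uhrf1, Dnmt1, Setdb1, Tet2 and Igf2r were named after their values were seen. In NSC 15 were higher (44.4% of all genes) and 6 lower (33.7%) than at baseline, and in NR 17 (45.6%) and 6 (34.1%). The 6 in NSC were 3 without NSC replicate 2 or baseline replicate 2 or 3. Methylation of imprinted regions was not analysed here.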

How the data were processed

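RNA was amplified from whole cell populations and sequenced in 12 libraries, 3 for each of 4 groups taken from the labels. The authors deposited whole-number counts of reads per Ensembl gene, and the submitters' processing notes name STAR 2.6, RSEM 1.1.14 and mm10. The kit does not mark strand and uses no molecular identifiers, so floors and intervals cover counting error only. Exons of further members, among them Gnas (with Nespas) and Kcnq1ot1 (with Kcnq1), also overlap genes on the other strand. Symbols came from GENCODE annotation of GRCm38, and 563 IDs without a symbol (0.124% of counts) stayed in the fit. Totals ran from 3407066 to 43095688 counts, so members near the floor are less precise in the NPC groups.

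Here, counts were scaled by TMM, low genes removed by filterByExpr, and all 12 libraries fitted together in edgeR 4.0.16 (R 4.3.3, quasi-likelihood, no block), with Benjamini-Hochberg adjustment over 17003 genes. A gene was called changed at an adjusted p under 0.1, the study's false discovery rate, and past 4-fold where the fold also exceeded 4. Fold changes use a prior count of 0.125. SEs are the size of the log2 fold change divided by the root of F. Groups with at most 3 counts in every library were held to be at the floor, a zero group being set to 3 counts per library for a bound, and ratios of counts carry 95% exact intervals. Counts were simulated with 200 of 17003 genes changed by 3 on the log2 scale. The changed genes were drawn only from those above a low cut in the second-named group. Recovery of genes near the floor there was not simulated. The fit of Sox1-positive against baseline NPCs recovered 97.5% of the changed genes, and 8.88% of calls were false. The false share was 6.54% for NSC and 11.9% for NR against baseline. It was 12.3% for NR against NSC and 12.1% for Sox1-positive NPCs against NSC. Values for NR and for Sox1-positive NPCs against NSC thus exceeded the 0.1 used for calls. In the data, far more than 200 genes were called in each comparison.

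Members and lists were chosen with earlier results of these data known. Values in every library were given to members past 4-fold in Sox1-positive NPCs, NSC or NR against baseline, and to a few more in the first comparison. Replicates within a group correlated at 0.974 to 0.995 and differed beyond counting noise. Same-numbered NSC and NR libraries deviated together (correlations 0.209, 0.483 and 0.270), and other groups did not pair. Alternatives were DESeq2 1.42.0, other scalings, other filters and thresholds, thinning, a replicate block, and leaving out each library. Promoter windows came from RefSeq.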

Additional observations from a re-analysis of the deposited data

How the results depend on the processing

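Only members called in the main fit, and not at the floor in both groups, had their fold changes followed under the alternatives. Outside Sox1-positive against baseline NPCs, these were only the calls past 4-fold. Calls gained under an alternative could not enter this tally. Of these fold changes, 1039 kept their direction and side of the threshold and 18 were no longer called. The 1 that reversed was Phlda2 in NSC against baseline after thinning to the smallest total (-0.12, adjusted p = 0.94). Of the counts of changed genes, 304 stayed within 1.5 times and 48 moved. Requiring a fold over 4 left 3 members higher and 3 lower in Sox1-positive against baseline NPCs, 1 lower in NSC, 0 lower in NR, 3 higher and 0 lower in NR against NSC, and 1 higher and 17 lower in Sox1-positive NPCs against NSC. The same rule left 3 higher and 0 lower, 7 higher and 2 lower, and 1 lower of the other imprinted genes, and 0 and 0, 4 and 0, and 8 and 0 of the maintenance genes, in Sox1-positive NPCs, NSC and NR against baseline. Requiring 10 counts in every library removed members absent from NPCs. It also removed Cdkn1c and Ndn, which were present at baseline but had fewer than 10 counts in every Sox1-positive library. This filter left 4 lower members in Sox1-positive NPCs, 13 higher in NSC and 11 higher in NR. Against NSC it left 3 higher in NR and 11 lower in Sox1-positive NPCs. It left 1 higher of the other imprinted genes in Sox1-positive NPCs, 3 higher and 3 lower in NSC and 2 higher in NR, and 3 lower maintenance genes in Sox1-positive NPCs and in NSC.

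An adjusted p under 0.05 gave 5 lower members and 2 lower maintenance genes in Sox1-positive NPCs. Thinning gave 7 and 5 higher other imprinted genes in NSC and NR. No filter gave 2, and a fit of only the compared groups 4, lower other imprinted genes in Sox1-positive NPCs. DESeq2 size factors and upper-quartile scaling gave 3 and 2 lower maintenance genes there. The causes were not tested. Leaving out 1 library gave 5 to 7 lower members in Sox1-positive NPCs (5 without replicate 1 of either group), 1 to 5 lower maintenance genes there and 3 to 7 in NSC (3 without NSC replicate 2 or baseline replicate 2 or 3, and in Sox1-positive NPCs 1 without Sox1-positive replicate 1, 2 without Sox1-positive replicate 3 or baseline replicate 2, and 3 without Sox1-positive replicate 2 or baseline replicate 1).

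Only NSC and NR were paired by number. In the other comparisons, where samples shared only a number, a replicate block gave 11 higher and 8 lower members in Sox1-positive against baseline NPCs, 29 and 10 in NSC, 26 and 11 in NR and 9 and 27 in Sox1-positive NPCs against NSC, and 13 and 16 in NR against NSC, where no calls but the 3 given above changed. The smallest baseline and Sox1-positive libraries limit what can be seen for members near 3 counts.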
